A study of Mus musculus with 4 samples.

Results

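The 7 members of the renin-angiotensin and aminopeptidase group followed here across the cells of the stria vascularis (SV) were Agt, Ace, Enpep, Anpep, Lnpep, Agtr1a and Atp6ap2. They were matched by gene symbol, and each of the 7 was found in the gene lists of all 4 libraries, which held 27998 genes for the cell captures and 48816 for the nucleus capture. The group was chosen by measured values of these data, mainly the level of Enpep in marginal cells. Its levels by cell type are therefore given as a description, with no p-value.

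The renin-angiotensin system is a peptide hormone cascade. Angiotensinogen (Agt) is cut by renin to angiotensin I, and angiotensin-converting enzyme (Ace) makes angiotensin II from it. Angiotensin II acts on the AT1 receptor (Agtr1a) and is shortened by aminopeptidases of the M1 metallopeptidase family, first to angiotensin III by aminopeptidase A (Enpep) and then to angiotensin IV by aminopeptidase N (Anpep). Lnpep is the insulin-regulated aminopeptidase, which binds angiotensin IV, and Atp6ap2 is both the (pro)renin receptor and an accessory subunit of the vacuolar proton pump (V-ATPase). Outside the ear, Enpep is widely used as a marker of pericytes and of kidney epithelium, and Ace as a marker of endothelium. The SV is the epithelium of the cochlear lateral wall that makes the endocochlear potential, with marginal cells facing the endolymph, pigmented intermediate cells in the middle and basal cells facing the spiral ligament.

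The data were 3 scRNA-Seq captures of whole cells and 1 snRNA-Seq capture of nuclei from untreated CBA/J mice at postnatal day 30, made on the 10x Genomics Chromium platform. There was no genotype or treatment contrast. According to the labels a cell suspension came from about 12 mice and the nucleus suspension from about 10, while the study's supplement gives fewer mice for each cell capture. Animals were pooled, so that mice within a capture cannot be told apart, and the captures are the replicates. The cell captures held 392, 1358 and 1580 barcodes with 2811309 to 8340882 unique molecular identifiers (UMIs), and the nucleus capture held 11057 barcodes with 22332501 UMIs.

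Barcodes with at least 200 genes that were not called doublets were kept, which left 3152 cells and 9723 nuclei. Clusters were named from marker genes, and the members were left out of the genes used for clustering. For short, the marginal-like, intermediate-like, basal-like and spindle- or root-like clusters are called marginal, intermediate, basal and spindle/root. The marginal type held 19, 72 and 45 cells in captures 1 to 3, the intermediate type 126, 411 and 390, the basal type 23, 60 and 40, and the spindle/root type 4, 13 and 11. In nuclei the same types held 2588, 1474, 647 and 204 barcodes. All 10 marginal marker genes were detected in marginal cells, where they took 25588 of 1536207 UMIs, and in intermediate cells they took 14016 of 6111873. No endothelial or pericyte cluster was found. Mitochondrial genes took 35.1% to 38.5% of the UMIs of the kept cells and 20.7% of those of the nuclei. Barcodes that could not be named numbered 1493 among cells and 3874 among nuclei, with a median of 1 and 6 UMIs of the nuclear RNA Malat1. A further cluster of 227 cell barcodes carried marginal markers but a median of 1 Malat1 UMI, and it is described apart from the marginal cells. Between 0 and 32 barcode sequences were shared by any pair of libraries.

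Levels are given as a gene's UMIs per 1000000 UMIs of a cell type (CPM). Because 3′ UMI counts are not scaled to transcript length, levels are compared between cell types and not between genes. In summed counts, more cells with a gene's RNA and more RNA per cell cannot be told apart, so the share of barcodes with a UMI is given beside the level. Intervals are exact 95% intervals, Poisson for levels and binomial (Clopper-Pearson) for shares, and cover counting error only. Where a count was 0, the limit given is the level that 3 UMIs would have made, which is lower than the upper end of the exact interval.

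Agt, the precursor of all angiotensins, lies on chromosome 8 from 124556534 to 124569706 (mm10, minus strand). Its highest level among the strial types was in intermediate cells in each capture. The intermediate level was 65.9 CPM in capture 1 (71 UMIs), 59.3 CPM in capture 2 (153 UMIs) and 60.3 CPM in capture 3 (148 UMIs), a mean of 61.8 ± 3.56 CPM (SD, n = 3). Marginal cells had 15.8, 20.9 and 21.3 CPM of Agt in captures 1 to 3, from 4, 17 and 10 UMIs. Basal cells had 19.4, 14.3 and 30.9 CPM, from 7, 10 and 10 UMIs. The intermediate values did not overlap those of the marginal or basal cells, whose ranges overlapped each other. Spindle/root cells held 1 Agt UMI in all, in capture 2, of 250203 UMIs.

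Nuclei gave the same order for Agt at the top. Intermediate nuclei had 71.3 CPM (61.2 to 82.6, 178 UMIs), basal nuclei 20.8 CPM (23 UMIs), spindle/root nuclei 16.9 CPM (6 UMIs) and marginal nuclei 5.03 CPM (3.15 to 7.61, 22 UMIs). The intermediate level was 14.2 times the marginal level in nuclei, and 4.17, 2.83 and 2.84 times in captures 1, 2 and 3. An Agt UMI was found in 32.0% of 927 intermediate cells, 19.1% of 136 marginal cells and 3.00% of 100 erythroid cells, which should lack the gene. The median depths of these types were 6033, 11492.5 and 10193.5 UMIs. In erythroid cells 760998 of 1092808 UMIs were of erythroid marker genes, so fewer were left for other RNA. With every cell thinned to 1000 UMIs the shares were 6.26% (4.78% to 8.01%) in intermediate and 1.47% (0.179% to 5.21%) in marginal cells. The 2 intermediate clusters of cells had overlapping intervals of Agt, at 68.1 CPM (59.1 to 78.1) and 54.0 CPM (46.1 to 62.8), as did those of nuclei, at 68.7 and 82.1 CPM.

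UMIs of intermediate marker genes were also present in the barcodes of other types, and the Agt level was set beside the summed level of the intermediate marker genes. In marginal cells Agt was at 33.2% of its intermediate level and the intermediate markers were at 29.9% of theirs. In basal cells these values were 32.0% and 36.9%. In marginal nuclei they were 7.05% and 4.40%, and in basal nuclei 29.2% and 15.1%. Agt in marginal and basal cells thus stood near the share that the intermediate markers showed there. In marginal, basal and spindle/root nuclei Agt stood above that share, at 23.7% and 7.22% in spindle/root nuclei (6 Agt UMIs). Unnamed nuclei, at 62.3% and 26.1%, held 295 of the 547 Agt UMIs of the nucleus capture (53.9%). Intermediate nuclei held 178 of them (32.5%). Among the 3 marginal clusters of cells, Agt and the intermediate markers went together: the cluster with intermediate markers at 12282 CPM had 27.6 CPM of Agt (23 UMIs), the one at 4121 CPM had 15.1 CPM (7 UMIs), and the one at 481 CPM had 4.14 CPM (1 UMI). The part of carried-over RNA in the low Agt values was not tested.

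**Figure D1:**
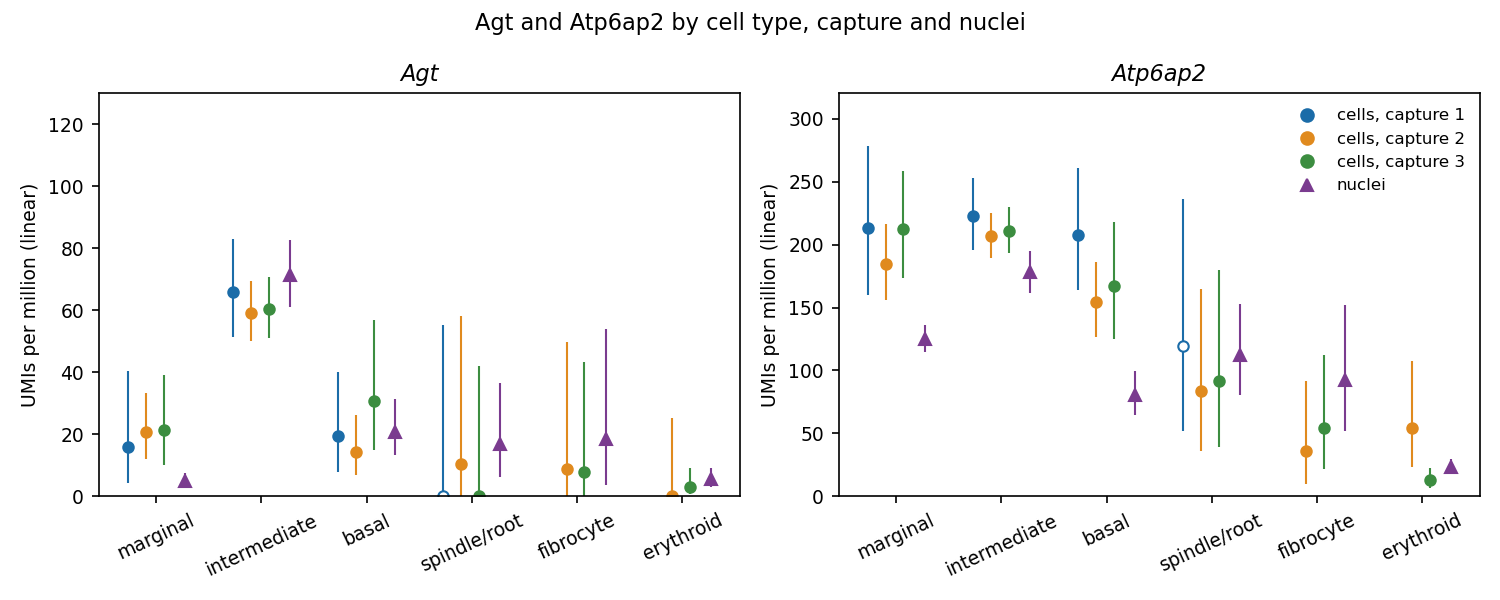
CPM of Agt (left) and Atp6ap2 (right) on linear axes for 6 cell types. Circles are the sums of cells per capture (open where a sum has 4 cells), triangles the nuclei, and bars exact 95% Poisson intervals. Agt is at 59.3 to 71.3 in the intermediate type and at or below 30.9 in the others, while Atp6ap2 is between 154 and 223 in marginal, intermediate and basal cells.

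Ace, the enzyme that makes angiotensin II, lies on chromosome 11 from 105967945 to 105989964 (plus strand). It was hardly counted. All kept cells together held 2 Ace UMIs, 1 in an intermediate cell and 1 in a fibrocyte, both in capture 3. The 136 marginal cells had 0 Ace UMIs of 1536207, which allows up to 1.95 CPM, and the 123 basal cells had 0 of 1384924, which allows up to 2.17 CPM. In nuclei there were 25 Ace UMIs in 25 barcodes. Marginal nuclei had 10 of them (2.28 CPM, 1.10 to 4.20), intermediate nuclei 8 (3.20 CPM, 1.38 to 6.31), basal nuclei 2 and spindle/root nuclei 1. The intervals of these types overlapped, and no order among them could be read at this depth. Barcodes with UMIs of at least 3 of the 9 endothelial markers numbered 8 among cells and 2 among nuclei, and these held no Ace UMI. With so few vascular barcodes, a level of Ace in vessels of the SV could not be given. An antisense gene, Gm11651, overlaps Ace on the opposite strand, and the way strand was handled in the counting is not given in the sources used here.

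Enpep, aminopeptidase A, lies on chromosome 3 from 129269175 to 129332720 (minus strand). Its highest level was in marginal cells. Marginal cells had 1170 CPM in capture 1 (296 UMIs), 1129 CPM in capture 2 (918 UMIs) and 1295 CPM in capture 3 (609 UMIs), a mean of 1198 ± 86.7 CPM (SD, n = 3). Spindle/root cells came next, with 261 CPM in capture 2 (25 UMIs) and 365 CPM in capture 3 (32 UMIs), and 239 CPM from 16 UMIs in the 4 cells of capture 1. Basal cells had 80.4, 31.4 and 74.1 CPM in captures 1 to 3. A single cell held 20 of the 29 basal UMIs of capture 1. Intermediate cells had 17.6, 16.3 and 5.30 CPM. The ranges of the 4 types over captures did not overlap, and the order of the values was marginal, spindle/root, basal, intermediate in each capture. In capture 2 the interval of basal cells (19.7 to 47.6 CPM) overlapped that of intermediate cells (11.7 to 22.0 CPM).

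Against intermediate cells the marginal level of Enpep was 66.3, 69.4 and 244 times higher in captures 1 to 3, where the intermediate cells held 19, 42 and 13 UMIs. Against basal cells it was 14.5, 35.9 and 17.5 times higher, and against spindle/root cells 4.88, 4.33 and 3.55 times. Erythroid cells, which should lack the gene, had 2 Enpep UMIs of 1092808 (1.83 CPM). Of those 1092808 UMIs, 760998 were of erythroid marker genes, which lowers the CPM of other genes there. No Enpep UMI was found among 149625 UMIs of 39 B cells and 212451 UMIs of 29 macrophages. Enpep UMIs were concentrated accordingly: marginal cells were 4.31% of the kept cells and carried 8.40% of all UMIs, but they held 1823 of the 2571 Enpep UMIs (70.9%). In nuclei the marginal type was 26.6% of the barcodes and held 6624 of the 9575 Enpep UMIs (69.2%).

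**Figure D2:**
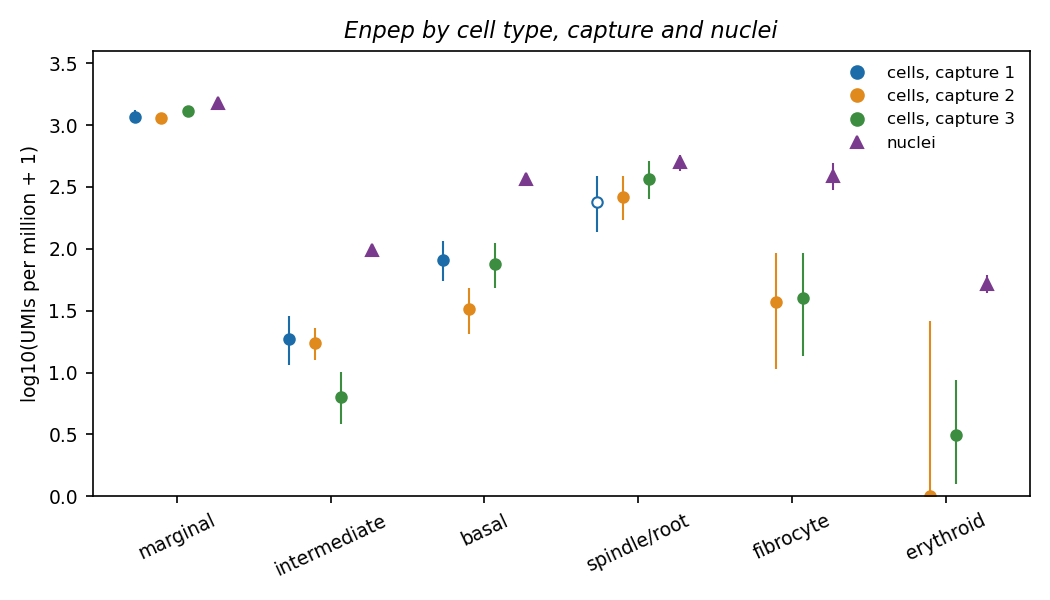
Enpep as log10 of CPM plus 1 for 6 cell types. Circles are the sums of cells in captures 1 to 3 (open where a sum has 4 cells), triangles the nuclei, and bars exact 95% Poisson intervals. The marginal values are 1129 to 1295 in cells and 1513 in nuclei, and in each library they stand above those of every other type drawn.

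Marginal nuclei had 1513 CPM of Enpep (1477 to 1550). Spindle/root nuclei had 498 CPM (177 UMIs), basal nuclei 368 CPM (406 UMIs), intermediate nuclei 96.1 CPM (240 UMIs) and erythroid nuclei 51.2 CPM (136 UMIs). The order of the 4 strial types was that of the cells. The distances were shorter: the marginal level was 15.7 times the intermediate, 4.11 times the basal and 3.04 times the spindle/root level. The erythroid nuclei, at a median of 5277 UMIs, had an Enpep UMI in 23.1% of barcodes, against 2.00% of erythroid cells at a median of 10193.5 UMIs. The background in barcodes that should lack the gene was thus higher in the nucleus capture. Erythroid marker genes took 1982488 of the 2655075 UMIs of erythroid nuclei. Their levels and shares of Enpep, thinned or not, therefore stand on a smaller part of the depth than those of other types. B cell nuclei, unlike B cells, held Enpep UMIs, 46 of 420549. Enpep in B cell nuclei was at 7.23% of its marginal level, and the marginal marker genes were at 8.50% of theirs. An Enpep UMI was found in 17.4% of the 207 B cell nuclei and in 14.5% of intermediate nuclei.

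At the level of single barcodes, 135 of 136 marginal cells had an Enpep UMI (99.3%, 96.0% to 100%). The median marginal cell had 16 Enpep UMIs in capture 1, 11 in capture 2 and 12 in capture 3, and the highest had 41. An Enpep UMI was found in 6.90% of intermediate cells and 21.1% of basal cells. Thinned to 1000 UMIs per cell, Enpep was found in 67.6% of marginal cells (59.1% to 75.4%), 17.9% of spindle/root cells (6.06% to 36.9%), 3.25% of basal cells (0.893% to 8.12%) and 1.51% of intermediate cells (0.828% to 2.52%). In marginal nuclei 83.4% of barcodes had an Enpep UMI at full depth and 48.8% (46.9% to 50.7%) when thinned to 500 UMIs, where erythroid nuclei had 2.92% (1.60% to 4.85%). Thinned likewise, spindle/root nuclei had 21.1% (15.7% to 27.3%), basal nuclei 14.4% (11.8% to 17.3%) and intermediate nuclei 4.82% (3.78% to 6.04%). No barcode was left out by either thinning.

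The 3 marginal clusters had 1076 CPM (1007 to 1149, 58 cells), 1216 CPM (1118 to 1321, 43 cells) and 1513 CPM (1362 to 1676, 35 cells). In the same order, the level of Dct, a melanin synthesis enzyme of intermediate cells, was 7808, 2677 and 294 CPM, and that of Kcne1, a potassium channel subunit of marginal cells, was 843, 1199 and 2392 CPM. The cluster with the least Dct had the most Enpep. Nuclei formed 2 marginal clusters: 1332 CPM (1292 to 1372) in 2211 nuclei and 2014 CPM (1934 to 2098) in 377 nuclei, whose leading genes included Spp1 and Kcnk1. The median depths of these clusters were 1324 and 2613 UMIs.

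The spindle/root type was not uniform for Enpep. In cells, 72 of its 73 UMIs lay in the 10 spindle-like cells (551 CPM, 431 to 694), each of which had at least 1 Enpep UMI. The leading genes of that cluster were Wfdc18, Lect1, Anxa1, Krt18 and Krt8. The 18 root-like cells, led by Epyc, Gpx2 and Ceacam16, held the remaining UMI. A single spindle/root cell held 14 of the 16 Enpep UMIs of capture 1, and single cells held 20 of 25 in capture 2 and 20 of 32 in capture 3. The interval of the spindle-like cells does not cover such a spread between cells. In nuclei the spindle-like cluster, which shared Wfdc18 and Lect1 among its leading genes, had 750 CPM (622 to 896, 98 nuclei) and the root-like cluster 288 CPM (218 to 374, 106 nuclei). The spindle-like level was the higher of the 2 in both kinds of library.

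The Enpep level of the other types was likewise set beside the summed level of the 10 marginal markers. In intermediate cells Enpep was at 1.02% of its marginal level while the markers were at 13.8% of theirs, and in basal cells these values were 4.56% and 15.5%. In spindle/root cells they were 24.6% and 19.2%, and in spindle/root nuclei 32.9% and 20.5%. In basal nuclei they were 24.3% and 29.8%, in fibrocyte nuclei 25.6% and 29.2%, and in erythroid nuclei 3.38% and 4.60%. Enpep in intermediate and basal cells therefore lay below the share of the marginal markers. In the spindle/root type as a whole Enpep lay above it in both kinds of library. In cells nearly all Enpep UMIs of that type lay in the spindle-like cells. Fibrocyte cells also lay above it, at 3.11% and 2.44%, from 9 Enpep UMIs. Of the 63 Enpep UMIs in fibrocyte nuclei, 56 came from a cluster of 22 nuclei in which marginal markers were at 10055 CPM, against 18194 CPM in marginal nuclei.

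**Figure D3:**
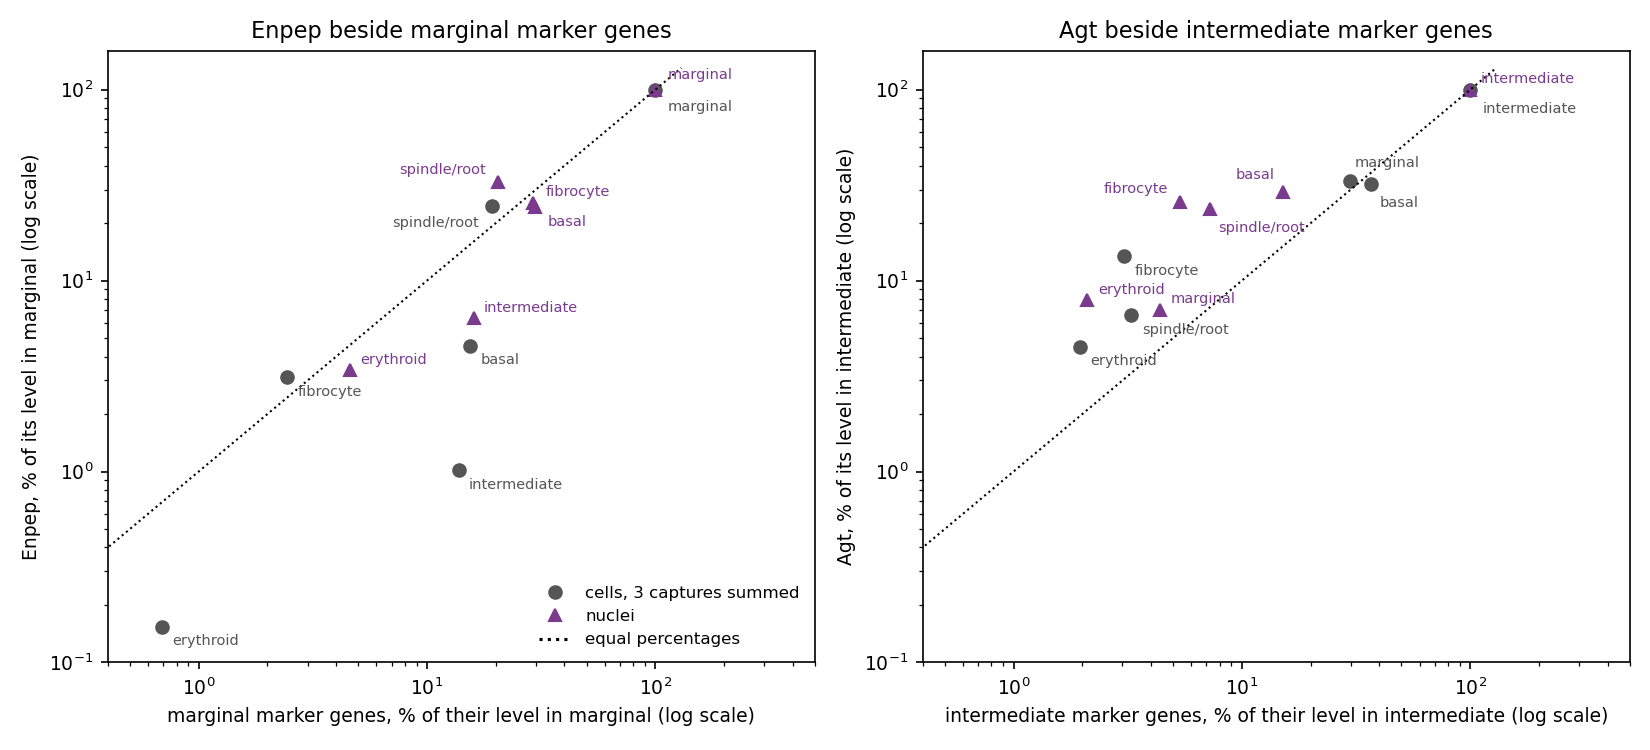
Enpep as a percentage of its marginal level against the marginal marker genes as a percentage of theirs (left), and Agt likewise against the intermediate markers (right), both on log axes. Circles are cells, triangles nuclei, and the dotted line marks equal percentages. Enpep in intermediate cells (1.02% against 13.8%) lies far below the line, and Enpep in spindle/root nuclei (32.9% against 20.5%) above it.

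Pericytes carry Enpep in other tissues, and few barcodes of these libraries could be named as pericytes by their markers. A pericyte of low depth can be missed in this way. Barcodes with UMIs of at least 3 of the 9 pericyte markers numbered 4 among cells, and there was none among nuclei. These 4 cells had 438 CPM of Enpep (250 to 711, 16 UMIs), and the 3 of them that were not marginal had 233 CPM (75.6 to 543, 5 UMIs). Of the marginal cells, 116 had no UMI of any pericyte marker, and their Enpep level was 1205 CPM (1145 to 1267). The 20 marginal cells with 1 or more such UMIs had 1098 CPM (976 to 1232). In nuclei these values were 1499 CPM (1462 to 1537, 2491 nuclei) and 1795 CPM (1618 to 1986, 97 nuclei). In cells these intervals overlapped. In nuclei the level was lower where pericyte markers were at 0 but remained above that of every other type. Median depths without and with pericyte marker UMIs were 11259 and 14433 UMIs in marginal cells and 1387 and 1509 in marginal nuclei. At these depths a count of 0 does not show that pericyte RNA was absent, and its part in marginal Enpep was not tested. Mitochondrial genes took 27.2% of the UMIs of marginal cells and 34.9% of those of intermediate cells, and without these genes the marginal mean was 1638 ± 137 CPM and the intermediate mean 19.7 ± 9.73 CPM.

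The 227 cell barcodes with marginal markers but little Malat1 had 148, 145 and 195 CPM of Enpep in captures 1 to 3 (210 UMIs in all). They stood at 13.8% of the level of the marginal cells, while marginal markers stood at 32.3%. Mitochondrial genes took 48.4% of their UMIs. An unnamed cluster of 170 cells with marginal markers at 4558 CPM and intermediate markers at 16554 CPM had 113 CPM of Enpep (198 UMIs) and 45.8 CPM of Agt (80 UMIs).

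Anpep, aminopeptidase N, lies on chromosome 7 from 79821803 to 79861059 (minus strand). It was rare in the strial types. In cells its highest level was in fibrocytes, cells of the spiral ligament and other connective tissue. All kept cells held 24 Anpep UMIs, of which 12 were in the 42 fibrocytes: 8 in capture 2 (71.7 CPM, 31.0 to 141) and 4 in capture 3 (31.2 CPM, 8.51 to 80.0). Basal cells held 0, 2 and 3 UMIs in captures 1 to 3, marginal cells 1, 1 and 0, and spindle/root cells 3 in a single cell of capture 2. Intermediate cells held 0 of 6111873 UMIs, which allows up to 0.491 CPM. In nuclei, 8 of 21 Anpep UMIs were in basal nuclei (7.25 CPM, 3.13 to 14.3), 2 were in fibrocyte nuclei (12.3 CPM, 1.49 to 44.5), and marginal nuclei had 0 of 4377125, which allows up to 0.685 CPM. The fibrocytes also carried more endothelial and pericyte marker RNA than the other types of cells, at 612 and 308 CPM, with all 9 endothelial and 6 of the 9 pericyte markers detected. The 8 cells with UMIs of at least 3 endothelial markers, taken from all types, held 5 of the 24 Anpep UMIs (48.8 CPM, 15.8 to 114). The 7 of them that were not marginal held 4. Fibrocytes were not left out of these cells, so the groups can share cells and their intervals cannot be compared. The part of vascular RNA in the Anpep of fibrocytes was not tested.

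Lnpep, the insulin-regulated aminopeptidase, lies on chromosome 17 from 17521410 to 17625050 (minus strand). In cells it was near the limit of detection, with 67 UMIs in all kept cells (3.66 CPM). Intermediate cells held 3, 11 and 7 Lnpep UMIs in captures 1 to 3, and marginal cells held 0, 8 and 4. Lnpep had 3, 4 and 1 UMIs in basal cells, while the spindle/root type held none. These counts gave no order between the types. Nuclei held far more, 1086 UMIs (58.6 CPM). Marginal nuclei had 119.9 CPM (110 to 131, 525 UMIs), spindle/root nuclei 146 CPM (109 to 192, 52 UMIs), basal nuclei 103 CPM (85.2 to 124, 114 UMIs) and intermediate nuclei 83.7 CPM (72.8 to 95.9, 209 UMIs).

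In the nucleus capture Lnpep did not follow the strial lineages only. B cells had 105 CPM (76.0 to 140) and fibrocytes 111 CPM (65.7 to 175), while erythroid nuclei had 10.55 CPM (7.01 to 15.2). The marginal and intermediate intervals did not overlap, but basal nuclei overlapped both. In the unnamed barcodes of the same capture, whose median Malat1 count was 6 UMIs and which had 45.4% mitochondrial UMIs, Lnpep was at 11.7 CPM (9.29 to 14.7), below every named type other than erythroid nuclei. Enpep in those unnamed barcodes was at 276 CPM and Atp6ap2 at 126 CPM, where marginal nuclei had 125 CPM. Cells and nuclei differ in RNA compartment, in the gene list used for counting and in the library, and these cannot be told apart as sources of the difference in Lnpep.

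Agtr1a, the AT1a receptor of angiotensin II, lies on chromosome 13 from 30336441 to 30382867 (plus strand). Not 1 UMI of it was found in the marginal, intermediate, basal or spindle/root cells. The limits that a count of 0 allows were 1.95 CPM in marginal, 0.491 CPM in intermediate, 2.17 CPM in basal and 12.0 CPM in spindle/root cells. In nuclei the 4 types held 2, 1, 1 and 0 UMIs. The receptor was counted in erythroid cells instead: 16 of the 17 UMIs of all kept cells were in 12 of the 86 erythroid cells of capture 3 (16.9 CPM, 9.67 to 27.5). The 14 erythroid cells of capture 2 had none among 146578 UMIs, too few to tell them apart from those of capture 3. In nuclei 54 of 63 Agtr1a UMIs were in erythroid barcodes (20.3 CPM, 15.3 to 26.5).

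Those erythroid nuclei formed 2 clusters, and 53 of the 54 Agtr1a UMIs lay in the smaller one. It held 122 nuclei, had Hemgn, Rhag and Ermap among its leading genes, and had 67.3 CPM of Agtr1a (50.4 to 88.0), with a UMI in 31.1% of its barcodes. The other cluster held 358 nuclei led by globin genes and Alas2, with 1 UMI (0.535 CPM). The median depths of the smaller and the larger cluster were 5506 and 5249 UMIs, and their Enpep levels 55.9 and 49.3 CPM. The other angiotensin receptors were also near 0: Agtr1b had 0 UMIs in cells and 3 in nuclei, and Agtr2, the AT2 receptor, had 2 UMIs in cells, both in fibrocytes, and 0 in nuclei. Mas1, the receptor of angiotensin 1-7, had 0 UMIs in cells and 9 in nuclei.

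**Figure D4:**
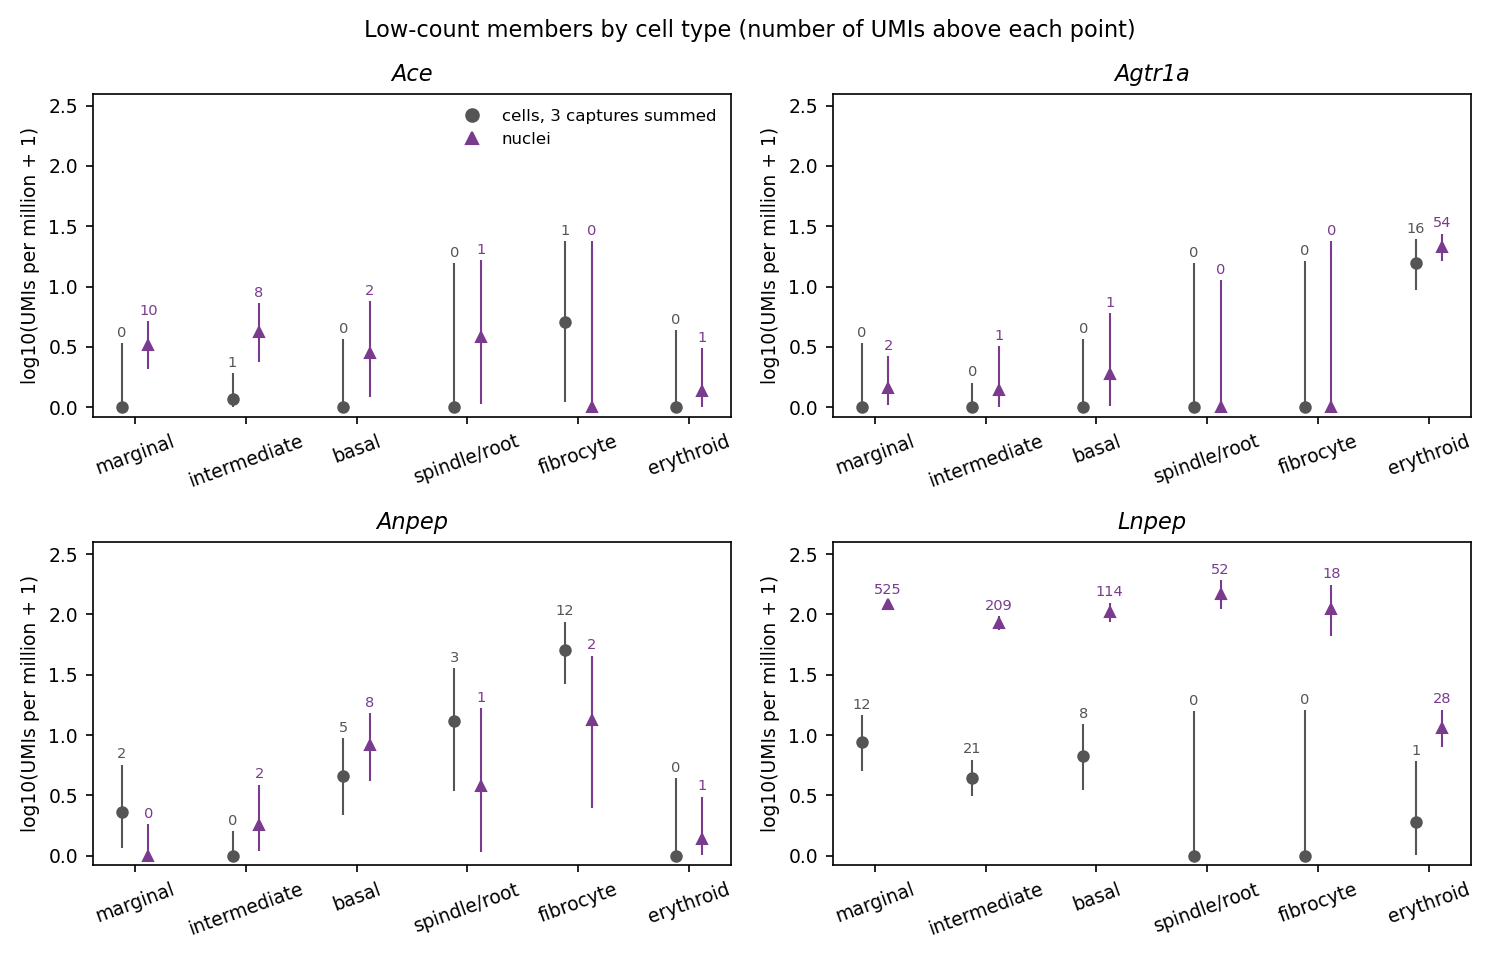
The 4 members with few UMIs, as log10 of CPM plus 1, by type in cells (circles, 3 captures summed) and nuclei (triangles). The number above each point is its UMI count and the bars are exact 95% Poisson intervals. Agtr1a is highest in erythroid barcodes (16 and 54 UMIs), Anpep in fibrocytes of the cell captures (12 UMIs), and Lnpep is far higher in nuclei than in cells of each strial type.

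Atp6ap2, the (pro)renin receptor and V-ATPase accessory subunit, lies on chromosome X from 12587801 to 12617049 (plus strand). It was spread over all types. Intermediate cells had 223, 206 and 211 CPM in captures 1 to 3 (213 ± 8.43, SD, n = 3), marginal cells 213, 184 and 213 CPM (204 ± 16.5) and basal cells 208, 154 and 167 CPM (176 ± 28.1). The ranges of these 3 types overlapped. Without mitochondrial genes the means lay further apart, at 326 ± 15.3 CPM in intermediate, 278 ± 21.0 CPM in marginal and 236 ± 33.5 CPM in basal cells. Spindle/root cells had 83.5 and 91.3 CPM in captures 2 and 3, from 8 UMIs each, below the ranges of the marginal, intermediate and basal cells. The 4 spindle/root cells of capture 1 held 8 Atp6ap2 UMIs of 66814. Erythroid cells had 18.3 CPM (20 UMIs). In nuclei the intermediate level was the highest, at 178 CPM (162 to 195), followed by marginal (125 CPM, 115 to 136), spindle/root (112 CPM, 80.3 to 153) and basal nuclei (80.7 CPM, 64.8 to 99.3). Intermediate nuclei did not overlap the other 3, and the smaller of their 2 clusters had 314 CPM (266 to 368) against 145 CPM (129 to 162), at median depths of 3494 and 1373 UMIs. The 2 marginal clusters of nuclei differed likewise, with 220 CPM (194 to 249) in the smaller and 90.9 CPM (80.7 to 102) in the larger. In cells, the 10 spindle-like cells had 145 CPM of Atp6ap2 (87.6 to 227) and the 18 root-like cells 41.8 CPM (13.6 to 97.6), with overlapping intervals.

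The counts of the 11 sums of cells with at least 5 cells were fitted with edgeR over 7328 genes, each type against the mean of the other 3 on the log scale with the capture as a block. Of the 7 members, 3 passed the filter on low counts: Enpep, Agt and Atp6ap2. For Enpep the log2 fold change was 4.22 (SE 0.22) in the marginal type, -4.14 (SE 0.36) in the intermediate, -1.58 (SE 0.37) in the basal and 1.50 (SE 0.46) in the spindle/root type. The last value is positive although the spindle/root level lies below the arithmetic mean of the other types, because the fit averages logarithms. Agt had 2.54 (SE 0.28) in intermediate cells, 0.03 (SE 0.43) in marginal, 0.05 (SE 0.47) in basal and -2.62 (SE 1.02) in spindle/root cells. The intermediate value of Agt also averages logarithms, over spindle/root sums with 1 UMI in capture 2 and 0 in capture 3. It was 4.06 without capture 2. Atp6ap2 had 0.87 (SE 0.14) in intermediate and -1.38 (SE 0.31) in spindle/root cells, and 0.36 (SE 0.16) and 0.15 (SE 0.17) in marginal and basal cells. The intermediate value of Atp6ap2 also takes in the low spindle/root sums, of 8 UMIs in each of captures 2 and 3. It was 0.52 without TMM scaling of the sums. The mean CPM of Atp6ap2 was 213 in intermediate and 204 in marginal cells.

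Among these 3 members, 1 was called higher in marginal cells, where 16.1% of all genes were, and 0 lower, where 9.69% were. In intermediate cells 2 were called higher (18.3% of all genes) and 1 lower (17%). In basal cells 0 were called higher (15.9%) and 1 lower (9.88%), and in spindle/root cells 1 higher (12.1%) and 1 lower (9.22%). The members were chosen with these levels known, so nothing is read from these counts.

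The other genes of the system were taken from 2 lists, 23 of the renin-angiotensin system and 8 of the M1 aminopeptidases. Ren1, renin itself, was hardly counted, with 1 UMI in cells and 4 in nuclei, all 4 in B cell barcodes. Of the 31 genes, 13 passed the filter and 8 were called in at least 1 type (edgeR, quasi-likelihood test, Benjamini-Hochberg adjusted over all genes), with 9 calls higher and 7 lower. These were 30.8% of the 52 tests of list genes over the 4 types, where 27% of the 29312 tests of all genes were called. The clusters were built from the same cells, although without these genes, so the adjusted p-values measure the spread between captures and not an independent grouping. Of the 8 renin-angiotensin genes tested, 2 were higher and 1 lower in marginal cells, 3 and 1 in the intermediate type, 1 and 1 in the basal type, and 0 and 3 in the spindle/root type. Of the 5 aminopeptidases tested, 1 was higher in marginal and 2 in intermediate cells, 1 was lower in spindle/root cells, and none was called in basal cells. The median log2 fold changes of the 2 lists were 0.17 and 0.22 in marginal cells, where the median of all genes was 0.08, and -0.67 and -0.71 in spindle/root cells, where it was -0.12.

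Mme is neprilysin, which makes angiotensin 1-7 from angiotensin I. In the fit of the 4 strial types, without the 4 spindle/root cells of capture 1, Mme was higher in basal cells. It had 44.4, 39.98 and 49.4 CPM in basal cells of captures 1 to 3, against 0.928, 1.16 and 1.63 CPM in intermediate and 11.9, 3.69 and 0 CPM in marginal cells. Its log2 fold change was 3.41 (SE 0.46) in basal cells, with an edgeR adjusted p of 6.8e-10, and -2.80 (SE 0.80) in intermediate cells (edgeR adjusted p 0.0028). Fibrocytes, which did not enter the fit, had more Mme than basal cells, with 152 CPM in capture 2 (17 UMIs) and 250 CPM in capture 3 (32 UMIs). Spindle/root cells had 8 Mme UMIs of 66814 in the 4 cells of capture 1, a higher level than that of basal cells in that capture. They had 2 Mme UMIs in capture 2 (20.9 CPM) and 0 in capture 3. Without capture 2 the basal value was 5.32 and the intermediate value -0.85, the latter no longer called. Basal nuclei had 27.2 CPM (18.3 to 38.8, 30 UMIs), marginal nuclei 10.3 CPM and intermediate nuclei 4.41 CPM. Spindle/root nuclei had 25.3 CPM from 9 UMIs and fibrocyte nuclei 24.6 CPM from 4, and both intervals overlapped the basal one.

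Lta4h, leukotriene A4 hydrolase, an M1 family member with aminopeptidase activity, was highest in intermediate cells, as Agt was. It had 123, 130 and 111 CPM in intermediate cells of captures 1 to 3, 83.0, 50.4 and 31.9 CPM in marginal cells and 63.8, 42.8 and 49.4 CPM in basal cells. The log2 fold change of Lta4h was 2.32 (SE 0.22) in intermediate cells, with an edgeR adjusted p of 5.5e-17, and 4.07 without capture 2. In spindle/root cells it was -2.79 (SE 0.72, edgeR adjusted p 0.0017), a call lost without capture 3. Nuclei had 165 CPM in the intermediate, 35.3 CPM in the basal, 24.9 CPM in the marginal and 2.81 CPM (1 UMI) in the spindle/root type. Ctsb and Ctsd are lysosomal cathepsins that can cut prorenin or angiotensinogen. In the fit both were also higher in intermediate cells, by 1.35 (SE 0.11) and 0.90 (SE 0.11) on the log2 scale. Their edgeR adjusted p were 2.6e-21 and 3.0e-11. Both were lower in spindle/root cells, by -1.25 and -1.27, and Ctsd was higher in marginal cells as well (0.48, SE 0.12). In CPM, however, Ctsd was alike in intermediate (538 ± 79.8, SD, n = 3) and marginal cells (537 ± 90.9). Ctsb had 1222 ± 152 CPM in intermediate and 716 ± 76.1 CPM in marginal cells. Macrophages, which did not enter the fit, had more Ctsd, at 2652 ± 1162 CPM. Ctsd had 7057 UMIs in cells but 5 in nuclei. The annotation lists a same-strand protein-coding gene, Gm49369, over Ctsd, and the part of that overlap in the difference was not tested.

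Atp6ap1, the other V-ATPase accessory subunit, stood highest in marginal cells, unlike Atp6ap2. It had 273, 300.1 and 279 CPM in marginal cells of captures 1 to 3, against 166, 137 and 156 CPM in intermediate and 202, 130 and 161 CPM in basal cells. The log2 fold change of Atp6ap1 in marginal cells was 0.93 (SE 0.14, edgeR adjusted p 4.9e-08). Marginal nuclei likewise had the highest level, 198 CPM (185 to 211), against 106 CPM in intermediate nuclei. Agtrap, which promotes internalisation of the AT1 receptor, was higher in intermediate cells by 0.53 (SE 0.17, edgeR adjusted p 0.0072) and lower in marginal (-0.58, SE 0.22) and basal cells (-0.65, SE 0.23), with edgeR adjusted p of 0.040 and 0.025. Without capture 3 both of the lower calls were lost, at -0.30 and -0.18, and without capture 2 the intermediate call was lost, at 0.36. Spindle/root cells had the highest mean, 106 ± 60.6 CPM (SD, n = 2) from 19 UMIs, against 75.3 ± 13.8 CPM in intermediate cells (n = 3), but their log2 fold change of 0.70 (SE 0.38) was not called. The remaining aminopeptidases called were Npepps, a cytosolic enzyme, with 0.54 (SE 0.20, edgeR adjusted p 0.043) in marginal cells, and 2010111I01Rik, aminopeptidase O, with 0.88 (SE 0.15, edgeR adjusted p 6.9e-07) in intermediate cells. The Npepps call was lost without capture 1 or capture 3 (0.54 and 0.23), and its value was 3.31 without capture 2.

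**Figure D5:**
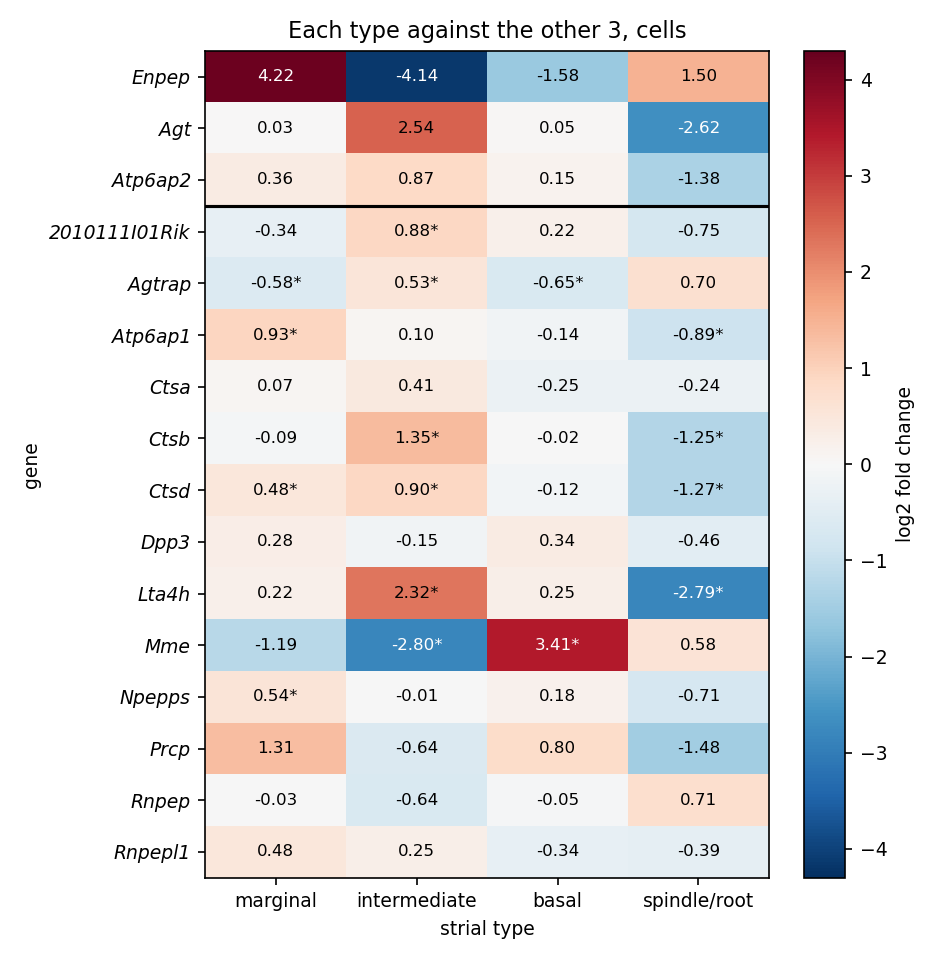
Log2 fold change of each strial type against the mean of the other 3 in cells, for the 3 members that passed the filter (above the line) and the 13 list genes (below). An asterisk marks a list gene with an edgeR adjusted p under 0.05, and members carry no mark because they were chosen on their levels. Enpep (4.22) has the largest marginal value drawn, Mme (3.41) the largest basal value, and Agt (2.54) and Lta4h (2.32) the largest intermediate values.

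The genes most like Enpep were sought over the 11 sums of cells, by Pearson's r of log2(CPM + 1) among 6792 genes. These sums share libraries and cell types, so r is a description. The 10 highest were Abcg1 (r = 0.99), Lrp2 (0.99), Atp1b2 (0.99), Slc41a2 (0.98), Trnp1 (0.98), Mall (0.98), Ank3 (0.98), Prom2 (0.98), Qsox1 (0.98) and Tnfrsf21 (0.98). Lrp2 is the endocytic receptor megalin and Atp1b2 a sodium pump subunit. Abcg1, Lrp2 and Atp1b2 are marginal marker genes, so clusters of cells and nuclei were named marginal partly by their levels. Each of the 10 was also highest in the marginal type in nuclei. Lrp2 for instance had 5099 CPM in marginal, 1136 in spindle/root, 1278 in basal and 429 CPM in intermediate nuclei, and Tnfrsf21 had 514, 81.5, 122 and 40.5 CPM. The 3 genes most like Agt were Fam181b, Mapt and Rufy3 (each r = 0.98), and those most like Atp6ap2 were Sgsh, Gpi1 and Aplp2 (each r = 0.99). Mapt had 202 CPM in intermediate cells and 92.9 CPM in marginal cells, and Rufy3 had 45.3 and 15.8 CPM. Fam181b had 35.3 CPM in intermediate cells and 0 UMIs in the 4 types of nuclei.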

How the data were processed

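The authors made the files with Cell Ranger, version 2.0.0 per the labels, on mm10. The deposited values are UMI counts per gene and barcode, 1 matrix per capture, not normalised. The counting of strand and introns is not given in the sources used here, and the nucleus capture has its own gene list. Barcodes with under 200 genes and Scrublet doublets (scanpy 1.11.5, 0.8% per 1000 barcodes) were removed (1, 15 and 20 cells of captures 1 to 3, and 978 nuclei). Cells of all captures, and nuclei apart, were clustered in Seurat 5.3.0 on 2000 variable genes without members and list genes, at resolution 0.8, with components of JackStraw p under 0.0001. Clusters were named from 15 marker classes by at least 3 raised markers. Clusters whose median barcode had at most 5 Malat1 UMIs stayed unnamed, a limit added after the data were seen. Counts were summed per capture and type with at least 5 cells and tested with edgeR 4.0.16 (TMM, filterByExpr, robust quasi-likelihood, capture as block, Benjamini-Hochberg). The script was tested on simulated data.

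Each capture is 1 suspension, so its sums are paired by design. Over 2194 genes the 15 pairs of sums of 1 capture had correlated deviations (r of 0.02 to 0.35, over 0.1 in 11 pairs). The p-values measure only the spread between 3 captures of pooled mice. The study's supplement gives a number of mice for each capture and does not state that the mice differed. The genes named were the 7 members, list genes called in a type or of a stated role, the 10 genes most like Enpep, and 3 each for Agt and Atp6ap2 (genes with at least 100 UMIs, r over type sums). The members and lists were chosen with earlier results of these data known. Of the list symbols, Cltrn and Aopep were matched by their older names Tmem27 and 2010111I01Rik. Gene positions are from GENCODE vM21 on the same build. In that annotation same-strand genes overlap Agtr1a (Gm48161), Anpep (Gm44974) and Lnpep (Gm49784), and an opposite-strand pseudogene (Gm42628) overlaps Enpep. The part of these overlaps in the counts was not tested. Alternatives were another clustering, doublets kept, DESeq2 1.42.0, other scalings, filters and pseudocounts, and each capture left out. Sequences of the proteins were not used here. A few genes of the lists and of the clusters' leading genes are not reported here.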

Additional observations from a re-analysis of the deposited data

How the results depend on the processing

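Over the 16 alternatives of the fit, the log2 fold change of Enpep, a gene chosen on its level, kept its sign in each type. It ran from 3.53 to 5.29 in marginal cells and from -4.75 to -2.98 in intermediate cells. In basal cells it ran from -4.73 to -1.03 and in spindle/root cells from 1.19 to 3.01. That of Agt in intermediate cells ran from 2.16 to 4.06 and that of Atp6ap2 from 0.52 to 1.11. In basal cells Agt and Atp6ap2 changed sign in 4 alternatives each, and Agt in marginal cells in 3. As the log2 ratio of marginal cells to the mean CPM of the other types (mean 3.70 over captures), Enpep gave 1.74 at resolution 0.4, where the spindle/root type had 66 cells, 4.69 with at least 500 genes per barcode and 4.59 with 20 principal components, and 3.28 to 4.00 with a capture left out. In capture 1 the other types of this ratio were intermediate and basal cells only, because spindle/root cells were too few. In captures 2 and 3 spindle/root cells were included. Enpep gave 4.55, 3.44 and 3.12 in captures 1 to 3, so the mean and the ranges mix unlike sets of types. The level of Enpep in marginal nuclei was 1442 CPM with no doublets removed and 1625 CPM without mitochondrial genes. The share of marginal cells with an Enpep UMI was 67.6% after thinning to 1000 UMIs, and that of marginal nuclei 48.8% after thinning to 500. Of the 10 genes most like Enpep, 6 remained without capture 2, 6 without capture 3 and 9 without capture 1. Lnpep in marginal cells (log2 ratio 0.10) was -0.067 with no doublets removed, -0.15 at resolution 1.2, -0.26 with no limit on Malat1, -0.0093 without mitochondrial genes, and -0.69 to 1.50 with a capture left out. Anpep in basal cells ran from -1.60 to 0.89 with a capture left out. The causes were not tested.

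Without the replicate block, 1117 genes were higher and 637 lower in marginal cells, and the list genes had 8 calls higher and 5 lower, with no change of sign. With DESeq2, 883 genes were higher in intermediate cells, 474 lower in basal and 346 lower in spindle/root cells, and 3 list calls were lower. Without TMM scaling, 723 genes were higher and 2151 lower in intermediate cells (1342 and 1245 with it), 417 were lower in spindle/root cells, and the median log2 fold change in intermediate cells moved from 0.04 to -0.30. At resolution 0.4, 1437 genes were higher and 1080 lower in spindle/root cells. With a capture left out, the counts higher and lower ran from 844 to 1089 and 446 to 622 in marginal, 1024 to 1284 and 855 to 1165 in intermediate, 854 to 1106 and 395 to 570 in basal, and 516 to 871 and 376 to 650 in spindle/root cells, and the list calls from 8 to 10 higher and 4 to 7 lower. The lowest of these counts came without capture 2 or capture 3. Of the 16 list calls none changed sign. Those of Agtrap in marginal cells, Atp6ap1 in spindle/root cells, Npepps in marginal cells and Agtrap in basal cells were lost in 11, 9, 8 and 7 of 16 alternatives, and 8 calls were kept in all, among them Mme in basal and Lta4h in intermediate cells. With 1 nucleus capture there was no replicate check in nuclei, and Ace, Agtr1a, Anpep and, in cells, Lnpep were limited by depth. The 4-cell sum of spindle/root cells in capture 1 entered no fit.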
